A study of Mus musculus with 21 samples.

Results

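The Kruppel-like factor (KLF) family was followed in 21 RNA-seq libraries of mouse bone marrow progenitors through 10 of its genes, Klf1, Klf2, Klf3, Klf4, Klf6, Klf7, Klf9, Klf10, Klf12 and Klf13. They were chosen by name from the 47643 genes of the count table, not by a cut on their values, but with earlier results of these data known. The paper had already reported Klf1 and Klf4 as differing between CD62L-high and CD62L-neg CMPs. The libraries came from young adult mice of the strain that the labels write as C57/B6, with 3 libraries from each of 7 populations sorted by flow cytometry. Within granulocyte-monocyte progenitors (GMPs), these were the CD62L-neg, the CD62L-int and the CD62L-high fraction and bulk cells. Within common myeloid progenitors (CMPs), they were a CD62L-high and a CD62L-neg fraction and bulk cells. The labels write CD62L-low for the CD62L-int GMPs and for the CD62L-neg CMPs. Within GMPs, the paper also reported a tendency of monocyte-related genes to be lower in the CD62L-int fraction, and named Klf4 among monocyte factors. From published single-cell data, it reported high Klf1 in a part of the CD62L-neg GMPs. No mouse carried a transgene or received a treatment that the labels name. CD62L, an adhesion molecule of the leukocyte surface, set the sort, and the gates were tails or slices of a continuous CD62L distribution that were cut separately in CMPs and in GMPs. Whether replicates of a population were separate mice is not stated in the sources used here, and the p-values cover only the spread between libraries.

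KLF proteins are transcription factors that bind GC-rich and CACCC-box sequences through zinc fingers at their C-terminus. KLF1 drives red cell differentiation. KLF4 promotes monocyte differentiation downstream of IRF8, and KLF2 holds T cells in quiescence and activates S1pr1 there. KLF3 and KLF12 recruit the CtBP co-repressors, KLF9, KLF10 and KLF13 can recruit SIN3A, and Klf2, Klf4, Klf6 and Klf10 respond within minutes to hours to growth factors, cytokines or stress in many cell types.

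Libraries held 6145834 to 15263573 counts. Depth differed by population, with at most 7509818 counts in each bulk CMP and CD62L-neg CMP library and at least 11360760 in every other library. In comparisons of these CMP populations with the other populations, depth and population cannot be told apart. Between 22.4% and 31.7% of the counts fell on 3 gene models (Gm23935, Gm26917, Gm42418) in most libraries, but 61.0% in bulk CMP replicate 2 and 41.1% in CD62L-high GMP replicate 1. Member calls that change without these libraries are given beside the result. Kit, which encodes the receptor that marks these progenitors, was counted in all 21 libraries, at 109.5 to 422 CPM (counts scaled to library size with TMM factors). Fcgr3, which encodes an Fc receptor used to gate GMPs, was higher in GMPs, by 4.12 on the log2 scale in bulk GMPs over bulk CMPs (SE 0.166, adjusted p = 7.88e-14). Irf8, a transcription factor of monocyte progenitors, averaged 751 ± 34.1 CPM in CD62L-high GMPs and 19.0 ± 5.12 CPM in CD62L-neg GMPs (SD, n = 3 each).

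Among the members tested, Klf1, Klf4 and Klf2 had the widest differences between population means, Klf2 only narrowly over Klf10. Klf1 was highest in CD62L-neg CMPs and was not counted in any CD62L-high GMP library. Klf4 ran the other way, with its highest mean in CD62L-high GMPs and its lowest in CD62L-neg GMPs. Klf2 was also low in both CD62L-neg populations. Klf6 and Klf10 were highest in bulk CMPs, above both CD62L fractions of CMPs. Klf3, Klf7 and Klf13 passed an adjusted p of 0.05 together with a 2-fold difference in none of the 13 comparisons, and Klf12 had too few counts to be tested.

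**Figure D1:**
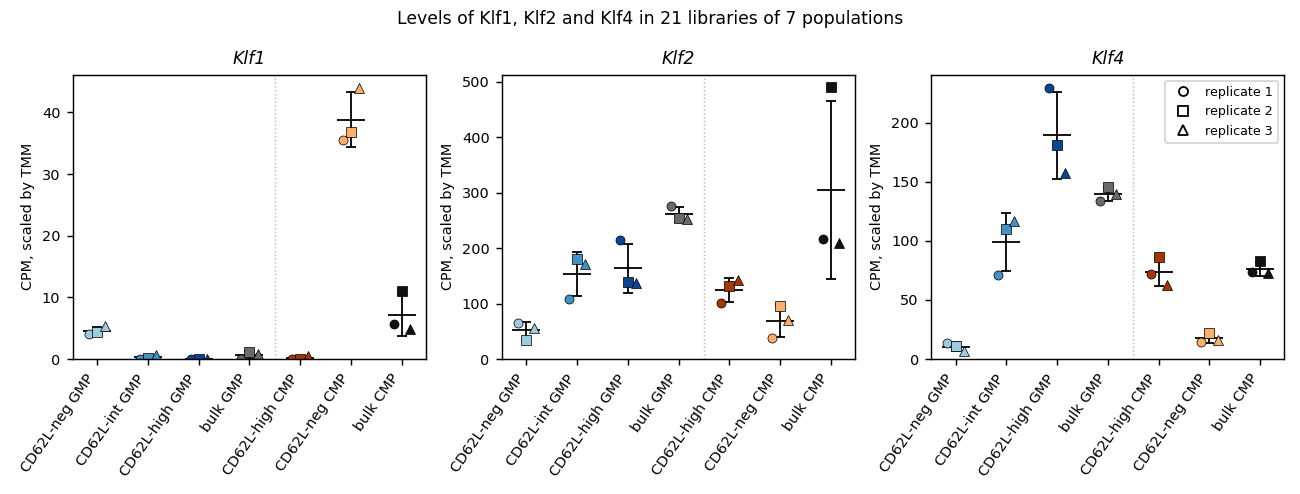
Levels of Klf1, Klf2 and Klf4 in CPM scaled by TMM (y axis) in the 3 libraries of each of 7 populations (x axis, GMPs left of the dotted line and CMPs right of it). Markers are replicates, and the bar and whiskers are the mean and SD. Klf1 stands at 35.6 to 43.9 CPM in CD62L-neg CMPs, Klf4 at 158 to 230 CPM in CD62L-high GMPs, and Klf2 reaches 490 CPM in bulk CMP replicate 2.

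Per exon length, Klf2 and Klf6 were the most abundant members in 6 of the 7 populations. In RPKM (the mean CPM per kilobase of exon), Klf2 had 88.6 in CD62L-high GMPs and 27.8 in CD62L-neg GMPs, while Klf6 had 52.7 in CD62L-high GMPs and 56.2 in CD62L-neg GMPs. Klf2 and Klf6 together made up between 57.9% of the summed RPKM of the 10 members, in CD62L-high GMPs, and 76.6%, in bulk CMPs. CD62L-high GMPs were the exception to the order, with Klf4 at 62.1 RPKM above Klf6. In CD62L-neg CMPs the third member was Klf1, at 25.4 RPKM. Klf3 and Klf7 stayed between 1.25 and 2.48 RPKM throughout. Klf3 overlaps the exons of Gm20033 on the opposite strand and Klf7 those of Gm26649 and Gm13748, and since no source states the strand setting of the counting, their values may include reads of these genes.

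Of the 10 members, 9 passed the filter on low counts and entered edgeR's quasi-likelihood test in one fit of all 21 libraries, with p-values adjusted over all 14801 genes tested. Genes passing both an adjusted p of 0.05 and a 2-fold difference are described as called. Between CD62L-high and CD62L-neg CMPs, 3 of 9 members were called (Klf1, Klf4 and Klf6), while 10.5% of all genes were. Between bulk GMPs and bulk CMPs, the 2 called members were Klf1 and Klf10, with 11.5% of all genes called. CD62L-neg GMPs differed from bulk GMPs in Klf1, Klf2 and Klf4, where 4.07% of all genes were called. The same 3 members were called between CD62L-int and CD62L-neg GMPs, against 4.32% of all genes, and between CD62L-high and CD62L-neg GMPs, against 10.5%. No member was called between CD62L-high and CD62L-int GMPs, where 1.22% of all genes were. In that comparison DESeq2 also called 0. With edgeR 4 members had an unadjusted p under 0.05, among them Klf1, which rested on 11 counts in CD62L-int and 0 in CD62L-high GMPs. The share of all genes at that unadjusted threshold is not given, so the 4 cannot be set against it. CD62L-high GMPs differed from CD62L-high CMPs in Klf4 alone among the members, with 7.64% of all genes called. CD62L-neg GMPs differed from CD62L-neg CMPs in Klf1 and Klf10, with 12.6% called. These comparisons share populations, so their counts are not separate evidence.

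Klf1, the erythroid member, was carried by the CD62L-neg gates. Its gene lies at chr8:84901928-84905291 on the plus strand of GRCm38. It had 35.6, 36.9 and 43.9 CPM in the CD62L-neg CMP libraries, which rested on 294, 289 and 325 counts. The CD62L-high CMP libraries had 0, 1 and 7 counts, which pooled to 0.179 CPM with an exact 95% Poisson interval of 0.0775 to 0.354 CPM that covers counting error only. All 3 CD62L-high CMP libraries thus stood below all 3 CD62L-neg CMP libraries, where 39.0% of all genes had no overlap in either direction. The log2 fold change of CD62L-high over CD62L-neg CMPs was -7.70 (SE 0.858, adjusted p = 6.79e-07). Bulk CMPs lay between the fractions, at 5.63, 11.1 and 4.83 CPM. In a comparison added after the levels were seen, CD62L-neg CMPs exceeded bulk CMPs by 2.48 on the log2 scale (SE 0.628, adjusted p = 0.0129), in a comparison where 5.63% of all genes were called. That call was lost without CD62L-neg CMP replicate 3 (2.40, adjusted p = 0.0648) and with DESeq2 (2.42, adjusted p = 0.116). CD62L-high CMPs were below bulk CMPs by a log2 fold change of -5.22 (SE 0.851, adjusted p = 0.000463), with 4.07% of all genes called.

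In GMPs, Klf1 was again highest in the CD62L-neg fraction, at a lower level than in CD62L-neg CMPs. The CD62L-neg GMP libraries had 4.05, 4.32 and 5.29 CPM, from 53, 55 and 66 counts. CD62L-int GMPs had 0, 1 and 10 counts of Klf1, and the log2 fold change of CD62L-int over CD62L-neg GMPs was -4.08 (SE 0.802, adjusted p = 0.00206). In CD62L-high GMPs Klf1 had 0 counts in each library, which allows up to 0.0738 CPM if 3 counts over the pooled libraries are taken as the limit. Klf1 was therefore at least 61.6-fold lower in CD62L-high than in CD62L-neg GMPs (adjusted p = 5.01e-05). Bulk GMPs had 0, 15 and 11 counts, and CD62L-neg GMPs exceeded them by 2.76 on the log2 scale (SE 0.713, adjusted p = 0.0201). That call was lost without bulk GMP replicate 1 (adjusted p = 0.0771), bulk GMP replicate 3 (0.0612) or CD62L-neg GMP replicate 3 (0.0572), and with DESeq2 (0.0981). Against bulk GMPs, Klf1 was at least 8.98-fold lower in CD62L-high GMPs but missed the threshold (adjusted p = 0.0545), which it passed in 5 of the 21 fits that left out 1 library, among them the fit without bulk CMP replicate 2 (adjusted p = 0.0232).

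Klf1 also separated the progenitor stages. CD62L-neg GMPs stood below CD62L-neg CMPs by a log2 fold change of -3.09 (SE 0.628, adjusted p = 0.000932). The libraries did not overlap, but the share of all genes without overlap is not given for this comparison. Bulk GMPs stood below bulk CMPs at -3.37 (SE 0.731, adjusted p = 0.00221). Without bulk CMP replicate 2 that value was -2.96 (adjusted p = 0.00415), and in a fit of only these populations it missed the threshold (-3.42, adjusted p = 0.0502).

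Erythroid and megakaryocyte markers moved with Klf1. Of 15 erythroid markers, 12 were tested and 10 were lower in CD62L-high than in CD62L-neg CMPs. Their summed level was 23.5 to 45.3 CPM in CD62L-high CMPs, against 543 to 596 CPM in CD62L-neg CMPs. In GMPs the sum was 50.2 to 76.6 CPM in CD62L-neg GMPs, 11.1 to 12.3 CPM in CD62L-int GMPs and 1.19 to 4.57 CPM in CD62L-high GMPs. Gata1, which encodes an erythroid transcription factor, was at 0 in all CD62L-high GMP libraries, where Klf1 was also at 0. Of 11 megakaryocyte markers, 10 were lower in CD62L-high than in CD62L-neg CMPs and 7 in CD62L-high than in CD62L-neg GMPs. Their sum was 34.3 to 37.1 CPM in CD62L-high CMPs, against 802 to 979 CPM in CD62L-neg CMPs. In GMPs it was 121 to 158 CPM in CD62L-neg, at most 24.0 CPM in CD62L-int and 13.3 to 19.0 CPM in CD62L-high GMPs. In sorted bulk samples, fewer cells of a lineage and less Klf1 RNA per cell cannot be told apart, and the part of erythroid- or megakaryocyte-primed cells in the Klf1 values was not tested.

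Genes that KLF1 is known to activate in red cells moved unevenly. Of 21 listed, 7 of them also erythroid markers, 14 were tested, and in CD62L-high against CD62L-neg CMPs 6 were lower, 2 were higher and 6 were not called, with a median log2 fold change of -0.98 (0.01 over all genes tested). Epor, the erythropoietin receptor, had 0 counts in the CD62L-high CMP libraries and 11.5 CPM on average in CD62L-neg CMPs. Ermap, an erythroid membrane protein gene, averaged 0.143 CPM in CD62L-high CMPs, against 19.1 CPM in CD62L-neg CMPs. The 2 that rose were Cdkn2c, a cell cycle inhibitor gene, at 1.12 (SE 0.209, adjusted p = 0.000333), and E2f2, a cell cycle transcription factor gene, at 1.06 (SE 0.315, adjusted p = 0.0201). The E2f2 call in CMPs was lost without CD62L-high CMP replicate 1 or 2 and without CD62L-neg CMP replicate 1 or 3 (adjusted p = 0.0539 to 0.0807). Cdkn2c and E2f2 also rose in CD62L-high over CD62L-neg GMPs, where Klf1 fell, at 2.20 (SE 0.211, adjusted p = 4.05e-08) and 2.10 (SE 0.317, adjusted p = 3.07e-05).

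The promoters of Klf1, Klf2 and Klf4 are shown because these members carried the largest differences, Klf2 only narrowly, with Klf1 opposed to the other pair. Each is the window from 250 bases before to 50 bases after the RefSeq start on GRCm38.p6, written 5′ to 3′ on the gene's strand. Klf1 is at chr8:84901732-84902031 on the plus strand, Klf2 at chr8:72318812-72319111 on the plus strand and Klf4 at chr4:55532426-55532725 on the minus strand. Capitals mark matches on either strand to the core of KLF binding sites, CACCC, to the GC box of SP-type factors, GGGCGG, to the core of GATA factor sites, GATAA, and to the CCAAT box. Adjoining capitals in Klf4 are GC box matches that touch or overlap.
Klf1: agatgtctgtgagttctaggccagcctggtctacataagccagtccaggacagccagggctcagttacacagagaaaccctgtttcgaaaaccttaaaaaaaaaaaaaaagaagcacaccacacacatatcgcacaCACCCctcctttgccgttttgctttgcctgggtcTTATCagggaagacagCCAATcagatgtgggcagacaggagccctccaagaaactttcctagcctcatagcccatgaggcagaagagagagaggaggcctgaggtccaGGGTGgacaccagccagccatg
Klf2: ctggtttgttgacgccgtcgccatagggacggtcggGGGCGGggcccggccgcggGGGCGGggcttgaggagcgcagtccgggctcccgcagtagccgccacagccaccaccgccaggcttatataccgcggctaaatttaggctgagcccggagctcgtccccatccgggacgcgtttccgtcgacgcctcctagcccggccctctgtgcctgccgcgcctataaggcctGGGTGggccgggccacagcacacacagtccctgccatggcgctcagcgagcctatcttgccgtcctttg
Klf4: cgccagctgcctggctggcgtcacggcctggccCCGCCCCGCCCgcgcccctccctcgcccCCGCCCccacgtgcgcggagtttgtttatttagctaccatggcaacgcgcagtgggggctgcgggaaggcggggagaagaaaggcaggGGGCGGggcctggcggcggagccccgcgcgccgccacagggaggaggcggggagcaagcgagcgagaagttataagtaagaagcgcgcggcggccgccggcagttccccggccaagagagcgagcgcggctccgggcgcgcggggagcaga
Promoter windows were found for 9 of the 10 members. Klf1 held 1 GATA match, 1 match to the CCAAT box and 2 to the KLF core, and no GC box. The GATA core was in 25.4% of 32817 promoter windows of this length, and the CCAAT box in 37.4%. Among the members, the GATA core was found for Klf1 and Klf12 only. Klf2 held 2 GC boxes and 1 KLF core. Klf4 held 4 GC boxes, a motif in 35.6% of all windows, and none of the others. Klf3 had 5 KLF cores and 6 GC boxes, the highest numbers among the members, and the KLF core was in 57.5% of all windows. These matches describe letters, not bound sites.

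Klf4, the monocyte-associated member, followed CD62L in CMPs and in GMPs. Its gene lies at chr4:55527143-55532466 on the minus strand of GRCm38. In the CMP fractions it had 72.3, 86.6 and 62.3 CPM in CD62L-high libraries, against 14.5, 22.1 and 15.7 CPM in CD62L-neg libraries. The lowest CD62L-high library was thus above the highest CD62L-neg library, and the log2 fold change was 2.08 (SE 0.236, adjusted p = 4.40e-07). Bulk CMPs, at 73.4, 83.1 and 72.9 CPM, were near the CD62L-high level, with a log2 fold change of CD62L-high over bulk CMPs of -0.05 (SE 0.221, adjusted p = 0.923). CD62L-neg CMPs were below bulk CMPs at -2.13 (SE 0.239, adjusted p = 1.18e-06).

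The gradient of Klf4 in GMPs was steeper. CD62L-neg GMPs had 13.8, 10.8 and 6.41 CPM, CD62L-int GMPs 71.3, 110 and 117 CPM, and CD62L-high GMPs 230, 181 and 158 CPM. No library of these fractions overlapped with those of the next. The share of all genes without overlap between GMP fractions is not given, so this lack of overlap cannot be set against it. CD62L-int GMPs exceeded CD62L-neg GMPs by 3.26 on the log2 scale (SE 0.244, adjusted p = 2.49e-09), and CD62L-high GMPs exceeded CD62L-neg GMPs by 4.19 (SE 0.253, adjusted p = 2.35e-11), an 18.2-fold difference. The step of CD62L-high over CD62L-int GMPs was 0.93 (SE 0.219, adjusted p = 0.0259), which passed the p threshold but not the fold threshold. Without CD62L-int GMP replicate 3 it was 1.04, and without CD62L-high GMP replicate 3 it was 1.02, and both values passed. Bulk GMPs had 134, 146 and 139 CPM, and CD62L-neg GMPs fell below them at -3.75 (SE 0.249, adjusted p = 4.41e-10).

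Between stages, Klf4 was higher in CD62L-high GMPs than in CD62L-high CMPs, by 1.36 on the log2 scale (SE 0.221, adjusted p = 0.000126). Without CD62L-high GMP replicate 1 this was 1.20 (adjusted p = 0.000889). Between the CD62L-neg populations the difference pointed the other way without passing the fold threshold, with a log2 fold change of CD62L-neg GMPs over CD62L-neg CMPs of -0.75 (SE 0.242, adjusted p = 0.0290). Without CD62L-neg GMP replicate 1 it passed, at -1.03 (adjusted p = 0.00713). Bulk GMPs were above bulk CMPs by 0.87 (SE 0.222, adjusted p = 0.00657), a fold of 1.83.

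Monocyte markers rose with Klf4 along the CD62L gates, but not in every other comparison. Of 13 markers, 11 were higher in CD62L-high than in CD62L-neg CMPs and 11 in CD62L-high than in CD62L-neg GMPs. Their summed level was 1928 to 2404 CPM in CD62L-high CMPs, against 33.9 to 79.4 CPM in CD62L-neg CMPs. It was 308 to 341 CPM in CD62L-neg GMPs, 2261 to 2378 CPM in CD62L-int GMPs and 3728 to 4237 CPM in CD62L-high GMPs. In bulk GMPs over bulk CMPs 6 of 13 were higher and 0 lower, with Klf4 at 0.87. In CD62L-high over bulk CMPs 8 were higher and 0 lower, though Klf4 stood at -0.05. In CD62L-neg GMPs over CD62L-neg CMPs 7 were higher and 0 lower, though Klf4 stood at -0.75. Eosinophil, basophil and mast cell markers ran against Klf4 in GMPs, with all 9 lower in CD62L-high than in CD62L-neg GMPs. Their sums were 5.39 to 7.43 CPM in CD62L-high GMPs, against 1920 to 2954 CPM in CD62L-neg GMPs. In CMPs, neutrophil markers also rose, with 6 of 12 tested higher in CD62L-high than in CD62L-neg CMPs. Neutrophil marker sums were 7280 to 8471 CPM in CD62L-high CMPs, against 887 to 1789 CPM in CD62L-neg CMPs. In GMPs they did not rise, with 3 of the 12 lower and 0 higher in CD62L-high than in CD62L-neg GMPs. The sums there were 19605 to 25613 CPM in CD62L-high GMPs and 24255 to 26246 CPM in CD62L-neg GMPs. B cell markers summed to 159 to 204 CPM in CD62L-high CMPs, against 6.35 to 21.9 CPM in CD62L-neg CMPs, and 1 of the 2 tested was called higher. They summed to 149 to 232 CPM in CD62L-high GMPs, against 12.2 to 20.04 CPM in CD62L-neg GMPs. The part of cells committed to these lineages in the Klf4 and Klf2 values was not tested.

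Klf2, at chr8:72319033-72321656 on the plus strand of GRCm38, had its lowest levels in the CD62L-neg cells of both stages. CD62L-neg GMPs had 64.7, 33.6 and 56.0 CPM, CD62L-int GMPs 108, 181 and 172 CPM, and CD62L-high GMPs 215, 138 and 138 CPM. Each CD62L-int and CD62L-high library stood above each CD62L-neg library, while CD62L-int and CD62L-high libraries overlapped. The share of all genes separated in this way between GMP fractions is not given. CD62L-int GMPs exceeded CD62L-neg GMPs by 1.58 on the log2 scale (SE 0.326, adjusted p = 0.00262), and CD62L-high GMPs exceeded them by 1.67 (SE 0.327, adjusted p = 0.000664). Without CD62L-high GMP replicate 1, which was the highest Klf2 library of that fraction, the second value was 1.42 (adjusted p = 0.00470). CD62L-high over CD62L-int GMPs gave 0.09 (SE 0.316, adjusted p = 0.953). Bulk GMPs, at 276, 254 and 252 CPM, stood above every library of the 3 fractions, and CD62L-neg GMPs were below them at -2.34 (SE 0.333, adjusted p = 4.34e-05).

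In CMPs, the Klf2 difference between the fractions did not pass. CD62L-high CMPs had 100.5, 132 and 142 CPM, against 37.8, 95.8 and 70.0 CPM in CD62L-neg CMPs. The libraries did not overlap, which held for 39.0% of all genes in this comparison, and the log2 fold change was 0.88 (SE 0.322, adjusted p = 0.0638). It passed without CD62L-neg CMP replicate 2, the highest of its group, at 1.21 (adjusted p = 0.0234). Bulk CMPs had 217, 490 and 209 CPM, all above both fractions. CD62L-neg CMPs were below bulk CMPs at -2.16 (SE 0.333, adjusted p = 8.63e-05), and without bulk CMP replicate 2, which held the 490 CPM, at -1.65 (adjusted p = 0.000134). CD62L-high CMPs were below bulk CMPs at -1.28 (SE 0.322, adjusted p = 0.0145), but that call was lost without bulk CMP replicate 2 (-0.77, adjusted p = 0.104), without CD62L-high CMP replicate 1 (-1.14, adjusted p = 0.0886) and in a fit of only these populations (-1.32, adjusted p = 0.0987).

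Genes that KLF2 is known to activate in lymphocytes and endothelium did not share a direction. Of 5 such genes reported here, 4 were tested, and CD62L-high GMPs had 2 of them higher and 1 lower than CD62L-neg GMPs. Thbd, which encodes the anticoagulant receptor thrombomodulin, rose by 2.63 on the log2 scale (SE 0.248, adjusted p = 3.29e-08) in CD62L-high over CD62L-neg GMPs, with 34.4, 38.0 and 29.9 CPM in the CD62L-high libraries against 4.28, 4.79 and 7.37 CPM in the CD62L-neg libraries. Itgb7, a homing integrin gene, rose by 1.29 (SE 0.196, adjusted p = 3.63e-05). S1pr1, the receptor that guides lymphocytes out of tissues, went the other way. It had 1.98, 5.65 and 5.19 CPM in CD62L-high CMPs, against 21.9, 32.0 and 37.6 CPM in CD62L-neg CMPs, a log2 fold change of -2.82 (SE 0.619, adjusted p = 0.00182), and it fell in CD62L-high GMPs too, to at most 1 count per library, against 2.22, 2.36 and 2.64 CPM in CD62L-neg GMPs (adjusted p = 0.000928).

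Klf6 and Klf10, which respond to stimulation in many cell types, were highest in bulk CMPs. Klf2 also had its highest mean there, but its bulk CMP and bulk GMP libraries overlapped. Its log2 fold change of bulk GMPs over bulk CMPs ran from -0.43 to 0.29 over the fits that left out 1 library. Klf6 lies at chr13:5861482-5870394 on the plus strand and Klf10 at chr15:38291463-38300706 on the minus strand of GRCm38. Klf6 had 163, 226 and 225 CPM in CD62L-high CMPs, against 304, 542 and 410 CPM in CD62L-neg CMPs, with no overlap. The log2 fold change of CD62L-high over CD62L-neg CMPs was -1.03 (SE 0.198, adjusted p = 0.000449), just past the fold threshold. It fell under that threshold without CD62L-neg CMP replicate 2 (-0.81) or without CD62L-high CMP replicate 1 (-0.90). Bulk CMPs had 629, 761 and 638 CPM of Klf6, and CD62L-high CMPs were below them at -1.72 (SE 0.201, adjusted p = 6.12e-06).

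The GMP fractions overlapped in Klf6 and lay below bulk GMPs. CD62L-neg GMPs averaged 247 ± 49.4 CPM, CD62L-int GMPs 222 ± 45.1 CPM and CD62L-high GMPs 232 ± 25.6 CPM (SD, n = 3 each), with overlapping libraries. Bulk GMPs had 502, 478 and 464 CPM, above each of the 9 libraries of the fractions. CD62L-int GMPs were below bulk GMPs by a log2 fold change of -1.12 (SE 0.198, adjusted p = 0.00661), where 0.277% of all genes were called. CD62L-high GMPs were below bulk GMPs at -1.06 (SE 0.197, adjusted p = 0.00255), where 2.09% were called. These shares themselves moved with single libraries. The 41 genes behind the first became 26 without CD62L-int GMP replicate 1 and 62 without bulk CMP replicate 2, and the 310 behind the second became 186 without CD62L-high GMP replicate 1, 193 without bulk GMP replicate 3 and 203 without bulk GMP replicate 2. Klf6 was the 1 member called in each of these, and neither call held in every fit. The first was lost without CD62L-int GMP replicate 1 (-0.95, adjusted p = 0.0794) and the second went just under the fold threshold without CD62L-high GMP replicate 3 (adjusted p = 0.0154). CD62L-neg GMPs were below bulk GMPs at -0.96 (SE 0.197, adjusted p = 0.00254), short of the fold threshold, and past it without CD62L-neg GMP replicate 1 (-1.13).

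Klf10 had 28.0, 30.7 and 33.9 CPM in CD62L-high CMPs, against 58.4, 55.4 and 48.4 CPM in CD62L-neg CMPs, a log2 fold change of -0.81 (SE 0.161, adjusted p = 0.000714) that was under the fold threshold. Bulk CMPs had 117, 100 and 105 CPM, and CD62L-high CMPs were below them at -1.80 (SE 0.164, adjusted p = 1.89e-07). CD62L-neg CMPs were below bulk CMPs at -0.99 (SE 0.161, adjusted p = 0.000164), just short of the fold threshold, and past it without bulk CMP replicate 2 (-1.04) or without CD62L-neg CMP replicate 1 (-1.04). Across stages Klf10 was lower in GMPs. Bulk GMPs, with 40.8, 37.0 and 33.2 CPM, were below bulk CMPs at -1.54 (SE 0.163, adjusted p = 3.39e-07). CD62L-neg GMPs, with 22.6, 24.1 and 17.8 CPM, were below CD62L-neg CMPs at -1.33 (SE 0.164, adjusted p = 1.59e-06). CD62L-high GMPs, at 32.5 ± 5.21 CPM, and CD62L-high CMPs, at 30.9 ± 2.95 CPM (SD, n = 3 each), overlapped, with a log2 fold change of 0.07 (SE 0.160, adjusted p = 0.839). Immediate early and heat shock genes, which respond to handling among other stimuli, were lower in comparisons where Klf10 was lower, and in others where it was not. Of 23, 9 were called lower and 0 higher in CD62L-high than in CD62L-neg CMPs, 13 lower and 0 higher in bulk GMPs than in bulk CMPs, and 11 lower and 0 higher in CD62L-neg GMPs than in CD62L-neg CMPs. In CD62L-high GMPs over CD62L-high CMPs 7 were called lower and 0 higher, with Klf10 at 0.07 and Klf6 at 0.18. In CD62L-high over CD62L-neg GMPs 8 were called lower and 2 higher, with Klf10 at 0.60 and Klf6 at -0.09. The part of what moved these genes in the Klf6 and Klf10 values was not tested.

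**Figure D2:**
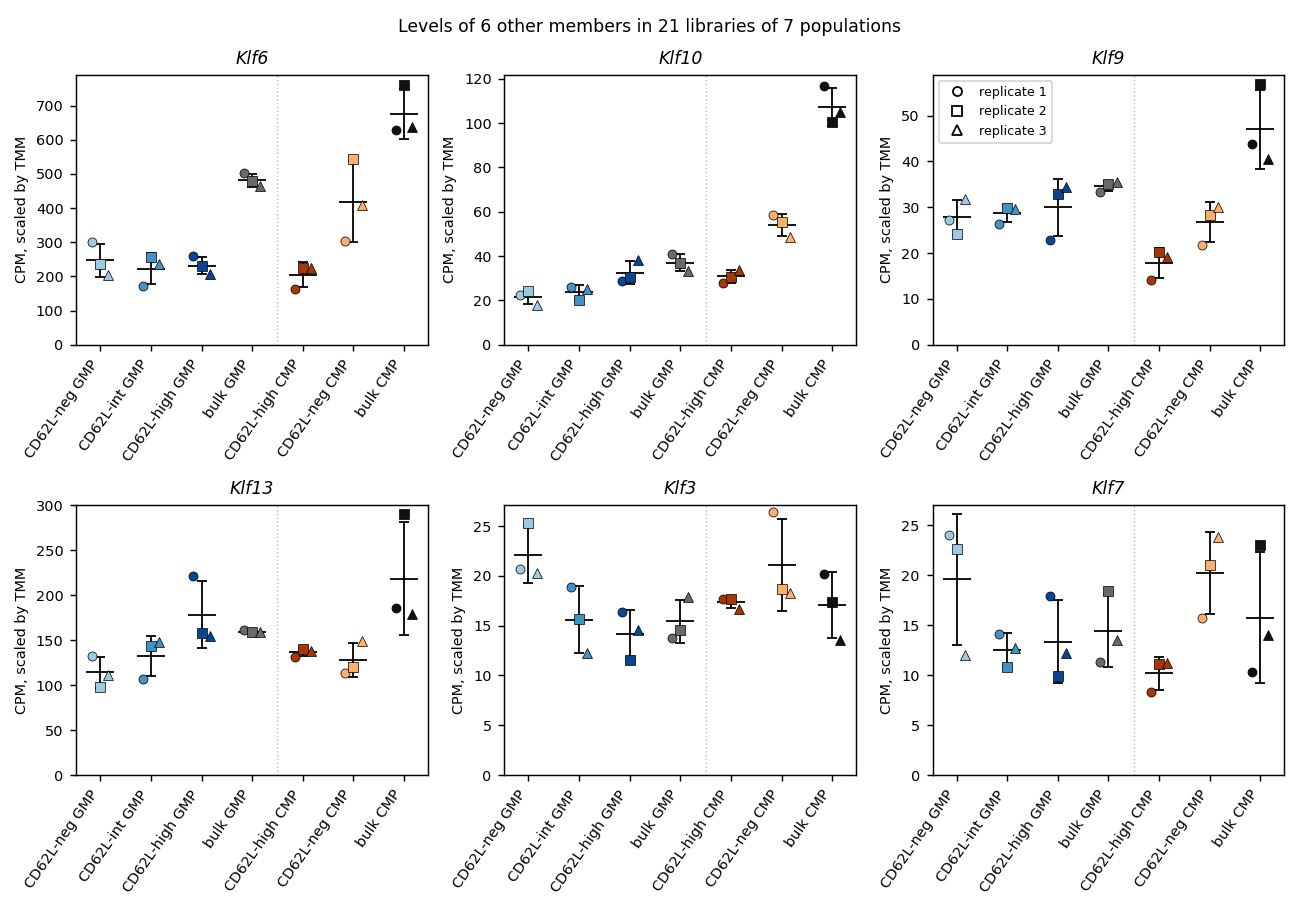
Levels of Klf6, Klf10, Klf9, Klf13, Klf3 and Klf7 in CPM scaled by TMM (y axes, each from 0) in the 3 libraries of each of 7 populations, with the mean and SD as bar and whiskers. Bulk CMPs have the highest mean of Klf6 (676 CPM), Klf10 (107 CPM), Klf9 (47.0 CPM) and Klf13 (218 CPM), while the libraries of Klf3 and Klf7 overlap between most populations.

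Klf9, a target of glucocorticoid and thyroid hormone receptors, had 14.1, 20.3 and 19.1 CPM in CD62L-high CMPs, against 43.8, 56.8 and 40.5 CPM in bulk CMPs. The libraries did not overlap, and the log2 fold change of CD62L-high over bulk CMPs was -1.39 (SE 0.196, adjusted p = 5.90e-05). Leaving out bulk CMP replicate 2 gave -1.24 (adjusted p = 0.000187). In the CD62L-neg CMPs Klf9 averaged 26.8 ± 4.39 CPM (SD, n = 3), and CD62L-high CMPs were below them at -0.58 (SE 0.194, adjusted p = 0.0398), short of the fold threshold. Over the 4 GMP populations its means were 27.8 to 34.6 CPM. Between CD62L-high GMPs and CD62L-high CMPs the log2 fold change was 0.75 (SE 0.192, adjusted p = 0.0101), again under the fold threshold.

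Klf13, which in T cells regulates Ccl5, varied little, with its highest and lowest population means 1.92-fold apart. It averaged 178 ± 37.2 CPM in CD62L-high GMPs and 114 ± 17.7 CPM in CD62L-neg GMPs (SD, n = 3 each), with a log2 fold change of 0.64 (SE 0.186, adjusted p = 0.0178). Its highest library was bulk CMP replicate 2, at 291 CPM, against 185 and 179 CPM in bulk CMP replicates 1 and 3.

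Klf3 and Klf12 encode CtBP-recruiting repressors. Klf3 averaged 14.2 ± 2.44 CPM in CD62L-high GMPs and 22.1 ± 2.79 CPM in CD62L-neg GMPs (SD, n = 3 each), its lowest and highest means, and the log2 fold change was -0.64 (SE 0.218, adjusted p = 0.0455), short of the fold threshold. Klf12 had 0 counts in all 12 GMP libraries, which allows up to 0.0784 CPM in the shallowest pooled group. It had 1, 3 and 6 counts in CD62L-high CMPs, 0, 0 and 13 counts in CD62L-neg CMPs and 2, 0 and 3 counts in bulk CMPs. The 13 counts in CD62L-neg CMPs came from a single library, so an order among the CMP populations was not detectable at this depth. Klf7, which is best known from neurons, had 8.30, 11.1 and 11.2 CPM in CD62L-high CMPs, against 15.7, 21.1 and 23.8 CPM in CD62L-neg CMPs. Its log2 fold change was -0.98 (SE 0.307, adjusted p = 0.0282), and it crossed the fold threshold with DESeq2 (-1.02, adjusted p = 0.0109), without CD62L-neg CMP replicate 1 (-1.14, adjusted p = 0.0214) and without both libraries richest in the 3 gene models (-1.01, adjusted p = 0.00360).

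The effect of the CD62L gate differed between GMPs and CMPs for 3 members, by the interaction term at an adjusted p under 0.05, which 7.35% of all genes passed. Klf4 rose with CD62L in both stages, and the log2 fold change of CD62L-high over CD62L-neg cells was larger in GMPs by 2.11 (SE 0.327, adjusted p = 0.000132). Klf10 had a log2 fold change of 0.60 in GMPs (SE 0.162, adjusted p = 0.0118) and of -0.81 in CMPs, neither past the fold threshold, and these differed by 1.40 (SE 0.229, adjusted p = 0.000238). Klf6 was at -0.09 in GMPs (SE 0.196, adjusted p = 0.821) and at -1.03 in CMPs, a difference of 0.94 (SE 0.277, adjusted p = 0.0384). The Klf6 difference missed the threshold in 7 of the 21 fits that left out 1 library, whereas those of Klf4 and Klf10 passed in all 21. Among the 7 was the fit without CD62L-high GMP replicate 1 (0.85, adjusted p = 0.0830). For Klf1 the difference was -1.05 (SE 1.27, adjusted p = 0.735) and for Klf2 0.79 (SE 0.453, adjusted p = 0.368), which passed without the filter on low counts (0.78, adjusted p = 0.0399). Klf9 was at 0.70 (SE 0.272, adjusted p = 0.138), and it passed without both libraries richest in the 3 gene models (0.87, adjusted p = 0.0149). Since the CD62L gates were cut separately in each stage, stage and gate width cannot be told apart in these differences.

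**Figure D3:**
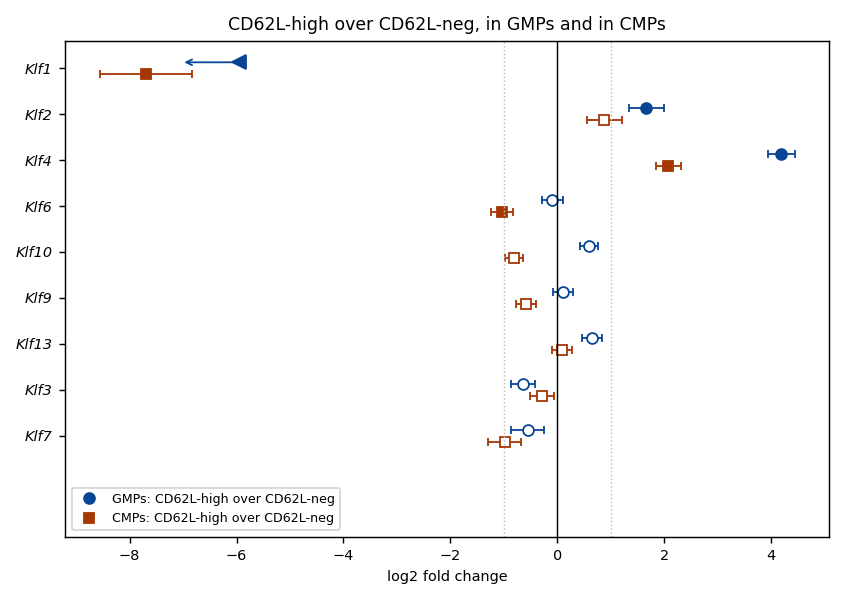
Log2 fold change of CD62L-high over CD62L-neg cells (x axis, whiskers are SE) for 9 members (y axis) in GMPs (circles) and CMPs (squares). Filled markers passed an adjusted p under 0.05 and a fold over 2 (dotted lines), and the arrow marks Klf1 in GMPs, drawn at its bound of 61.6-fold lower. Klf4 lies at 4.19 in GMPs and 2.08 in CMPs, and Klf10 lies on opposite sides of 0.

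Bulk populations stood outside the range of their fractions for several members. The sequenced fractions did not make up the whole of either stage. The paper also gated CD62L-int CMPs, which had no libraries here, and its GMP gates were narrow slices. The part of cells outside the sequenced gates in the bulk values was not tested. Against bulk CMPs, 5 members were called lower in CD62L-high CMPs (Klf1, Klf2, Klf6, Klf9 and Klf10), of which Klf2 was lost without bulk CMP replicate 2, while 4.07% of all genes were called. The 602 genes behind that share became 376 without CD62L-high CMP replicate 1. In CD62L-neg CMPs Klf2 and Klf4 were called lower and Klf1 higher, with 5.63% of all genes called. For Klf2, Klf6, Klf9, Klf10 and Klf13 each bulk CMP library exceeded each of the 6 libraries of the CD62L fractions. All CD62L-high CMP libraries were below all bulk CMP libraries for 11.7% of all genes, and all CD62L-neg CMP libraries for 11.9%. For Klf2 and Klf6 each bulk GMP library exceeded each of the 9 libraries of the GMP fractions, while 14.6%, 9.31% and 12.4% of all genes were below bulk GMPs without overlap in CD62L-neg, CD62L-int and CD62L-high GMPs. Immediate early and heat shock genes moved in the same direction in CMPs. Of 23 such genes, 18 were lower in CD62L-high than in bulk CMPs and 7 lower in CD62L-neg than in bulk CMPs, and none was higher. Their summed level was 5748 to 6595 CPM in CD62L-high CMPs, 8705 to 10626 CPM in CD62L-neg CMPs and 10203 to 11548 CPM in bulk CMPs. In GMPs the sum was 6810 to 7228 CPM in CD62L-neg, 5115 to 6287 CPM in CD62L-int, 4395 to 5314 CPM in CD62L-high and 7005 to 7305 CPM in bulk GMPs. Of the 23 genes, 5 were called lower and 2 higher in CD62L-neg than in bulk GMPs. In CD62L-high against bulk GMPs 8 were called lower and 0 higher, and in CD62L-int against bulk GMPs 1 lower and 0 higher. The part of a response to handling in the KLF values was not tested.

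**Figure D4:**
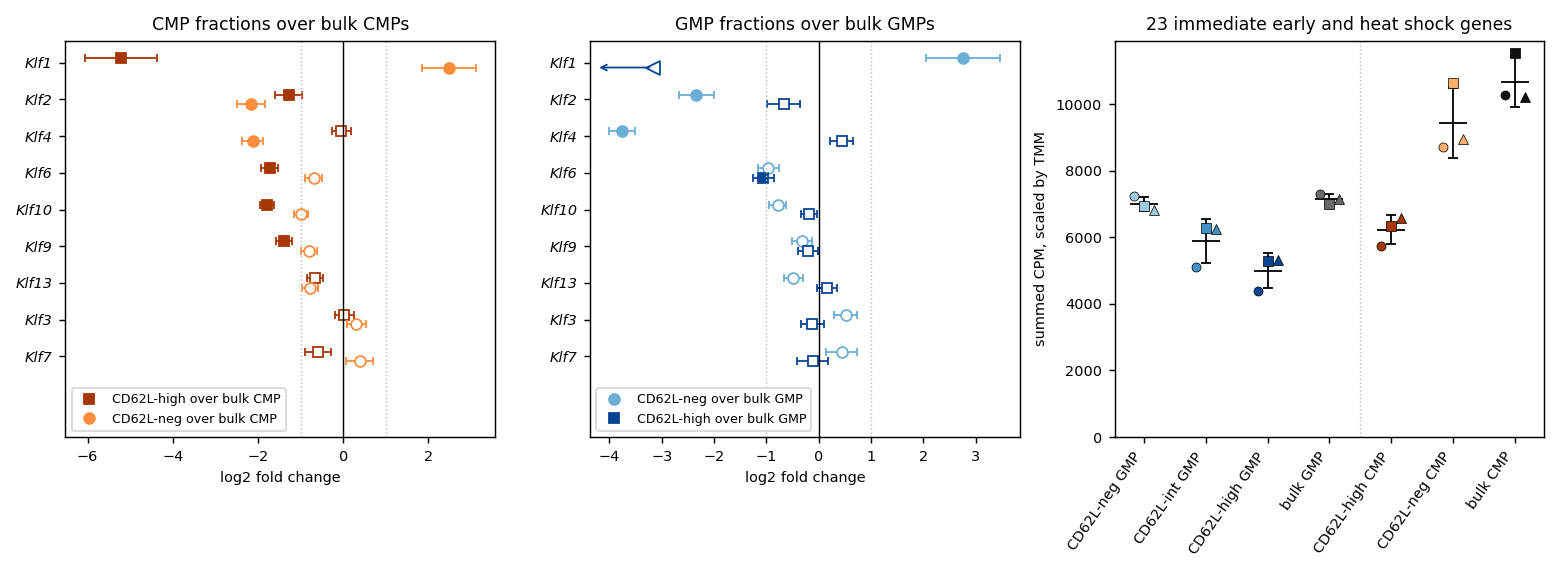
Left and middle, log2 fold changes (x axes, whiskers are SE) of the CD62L-high and CD62L-neg fractions over bulk CMPs and bulk GMPs for 9 members. Filled markers passed an adjusted p under 0.05 and a fold over 2 (dotted lines), and the arrow marks Klf1 at its bound of 8.98-fold lower. Right, summed CPM of 23 immediate early and heat shock genes in each library with the mean and SD, which is highest in bulk CMPs (10203 to 11548 CPM).

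Among the other 7 KLF genes, 4 were tested. Klf11, a close relative of Klf10, was lower in CD62L-high than in bulk CMPs at -1.50 (SE 0.305, adjusted p = 0.00288) and in bulk GMPs than in bulk CMPs at -1.19 (SE 0.303, adjusted p = 0.00685). The second Klf11 value fell short of the fold threshold without bulk CMP replicate 2 (-0.96, adjusted p = 0.0268). Klf16 was lower in the same comparisons, at -1.01 (SE 0.275, adjusted p = 0.0245) and -1.40 (SE 0.279, adjusted p = 0.000837), with 76.5 CPM in bulk CMP replicate 2 against 33.4 and 25.9 CPM in bulk CMP replicates 1 and 3. Both Klf16 calls were lost without bulk CMP replicate 2, at -0.42 (adjusted p = 0.299) and -0.82 (adjusted p = 0.00777), and the first also in most other fits, since it lay at the fold threshold. Klf5 followed the direction of Klf1 at low levels, with 0.817, 0.445 and 1.47 CPM in CD62L-high GMPs against 5.04, 4.71 and 5.29 CPM in CD62L-neg GMPs, and a log2 fold change of -2.44 (SE 0.577, adjusted p = 0.00397). Klf8 rose in CD62L-high over CD62L-neg GMPs by 1.43 (SE 0.403, adjusted p = 0.0148), a call that was lost without CD62L-high GMP replicate 3 and without CD62L-neg GMP replicate 1 or 2 (adjusted p = 0.0554 to 0.0950). Klf14, Klf15 and Klf17 had at most 7 counts in any library and were not tested. Of the related SP factors, Sp2 rose in CD62L-high over CD62L-neg GMPs by 1.08 (SE 0.143, adjusted p = 4.87e-06), and Sp4 was lower in bulk GMPs than in bulk CMPs at -1.09 (SE 0.337, adjusted p = 0.0241). The Sp2 value was 0.99 without CD62L-neg GMP replicate 2, and the Sp4 call was lost without bulk CMP replicate 2 or bulk GMP replicate 2 or 3 (adjusted p = 0.102 to 0.119). None of 11 cofactor genes, among them Ctbp1, Ctbp2, Sin3a and Ep300, was called in any of the 13 comparisons.

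The genes whose pattern over the 7 population means was most like that of a member were found by the smallest root mean square difference of centred log2(CPM + 1) among 9897 genes. These likenesses over 7 points are descriptions, and all points share the libraries. Closest to Klf1 were Ces2g (0.208), Optn (0.375) and Rab27b (0.395). Arl5c (0.249), Stxbp6 (0.412) and Tns4 (0.458) were closest to Klf4. For Klf2 they were Map3k8 (0.323), Nfkbid (0.341) and Rel (0.363), and for Klf6 Nfkb2 (0.202), Ddit3 (0.215) and mt-Atp8 (0.240). Klf10 lay closest to Bbc3 (0.144), Klf11 (0.149) and Csrnp1 (0.207), and Klf9 to Cpeb4 (0.143), Tusc1 (0.154) and Commd6 (0.157). The member's own SD over the populations, on the same scale, was 1.83 for Klf1, 1.40 for Klf4, 0.87 for Klf2, 0.72 for Klf10, 0.62 for Klf6 and 0.38 for Klf9.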

How the data were processed

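RNA of 7 sorted progenitor populations was sequenced, with 3 libraries each. The labels name a SMARTer stranded kit, whereas the paper names SMART-Seq v.4. The deposited values are raw counts per gene, made by the authors with Trim Galore, HISAT2 (mm10) and HTSeq, in versions not given in the sources used here. The study left out a bulk CMP sample for low mapping, and the sources do not say which, so all 21 libraries were used. All libraries were fitted together with edgeR 4.0.16 under R 4.3.3 (filterByExpr, TMM, quasi-likelihood test without covariates, Benjamini-Hochberg adjustment over 14801 genes). Calls needed an adjusted p below 0.05 plus a 2-fold difference, or the adjusted p alone for the interaction. Alternatives were DESeq2 1.42.0 and its size factors, no filter, a replicate block, a test against a 2-fold change, other sets of libraries and the adjusted p alone. Levels are CPM scaled by TMM, and RPKM used exon lengths of GENCODE vM21. Sequences are RefSeq's. The methods were tested on simulated data.

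The members, gene lists and comparisons were chosen with earlier results of these data known. Comparisons of fractions with bulk cells were added after levels were seen. Every member is named, with the called genes of each list that changed most, at most 4 in each direction, and the 3 genes most like each member whose population means span over 2-fold. Those for Klf12 are omitted because of its few counts. Some listed genes are not reported here. No duplicate libraries were found. Counting intervals cover counting error only.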

Additional observations from a re-analysis of the deposited data

Results flagged for a closer look

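For 3 members, the effect of the CD62L gate differed between GMPs and CMPs by a test of the difference itself (edgeR's interaction term). The log2 fold change of CD62L-high over CD62L-neg cells was larger in GMPs than in CMPs by 2.11 for Klf4 (adjusted p = 0.000132), by 1.40 for Klf10 (adjusted p = 0.000238) and by 0.94 for Klf6 (adjusted p = 0.0384). The Klf6 difference was the least stable, since it missed the threshold in 7 of the 21 fits that left out 1 library. All 3 Klf4 libraries of each CD62L-high population were above those of the CD62L-neg population of the same stage. Klf10 libraries of CD62L-high GMPs were all above those of CD62L-neg GMPs, while those of CD62L-high CMPs were all below those of CD62L-neg CMPs. Such a lack of overlap was common, holding for 39.0% of all genes between the CMP fractions, and adds little to the test. The share between the GMP fractions is not given.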

How the results depend on the processing

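Over the 13 comparisons, 117 member results were recomputed under each alternative, except 108 at the adjusted p alone and 113 with only the populations compared. No result that was called in the main fit or in the alternative changed its sign. Some results that were not called did, such as Klf2 in bulk GMPs over bulk CMPs (-0.43 to 0.29 over fits that left out 1 library). The number of members called, 3 between CD62L-high and CD62L-neg CMPs, became 6 at the adjusted p alone. At the adjusted p alone it also became 5 for CD62L-neg over bulk GMPs, 6 for CD62L-high over CD62L-neg GMPs, 1 for CD62L-high over CD62L-int GMPs, 2 for CD62L-high GMPs over CD62L-high CMPs, 4 for CD62L-neg GMPs over CD62L-neg CMPs and 7 for CD62L-neg over bulk CMPs. In a test against a 2-fold change, it was 0 for CD62L-high GMPs over CD62L-high CMPs and for CD62L-int and CD62L-high over bulk GMPs, 1 for CD62L-neg GMPs over CD62L-neg CMPs and for the interaction, and 3 for CD62L-high over bulk CMPs. With only the populations compared, bulk GMPs over bulk CMPs kept 1 call. Without a filter there were 1 for CD62L-high over CD62L-int GMPs, 2 for CD62L-high GMPs over CD62L-high CMPs and 2 for CD62L-high over bulk GMPs, where DESeq2 also gave 2; the added call was Klf1. Leaving out each library in turn gave 0 to 1 calls for CD62L-high over CD62L-int GMPs, 0 to 1 for CD62L-int over bulk GMPs and 0 to 2 for CD62L-high over bulk GMPs. A replicate block changed none of the 117 results, and the member counts with the block were 3, 2, 3, 3, 3, 0, 1 and 2 in the 8 planned pairwise comparisons, in the order of the report. Libraries with the same number did not correlate above 0.1 (-0.07 to 0.06), so numbers were not taken as pairs.

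Counts over all genes moved by over 1.5 times in a test against a 2-fold change in each comparison (762 in place of 1549 for CD62L-high over CD62L-neg CMPs, 723 in place of 1553 for CD62L-high over CD62L-neg GMPs). CD62L-high over CD62L-int GMPs had 180 genes called, 87 without CD62L-int GMP replicate 1, 104 without CD62L-high GMP replicate 1, 115 without CD62L-int GMP replicate 3, 71 with only these populations, 305 with DESeq2 and 324 without a filter. CD62L-high over bulk CMPs called 602, and 262 with only these populations. CD62L-int over bulk GMPs called 41, and 106 without a filter, and CD62L-high over bulk GMPs 310 and 482. The interaction called 1088 genes, and 1742 without bulk CMP replicate 2. Klf12 and Klf1 in CD62L-high populations are limited by depth.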
